A study of Cucurbita pepo with 12 samples.

Results

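Zucchini pollen carried a set of 217 abundant transcripts that were practically absent from root and leaf of the same experiment. They were chosen from the 27868 genes of the expression table as those with at least 100 FPKM (a level per kilobase of transcript, scaled to 1e6 reads) in all 4 pollen libraries and under 1 FPKM in all 4 root and all 4 leaf libraries. The plants were Cucurbita pepo, cultivar Costata Romanesco, grown 1 to a pot in 500 g of soil for 60 days until they flowered. The 4 groups within each tissue were untreated control plants, plants given CuO nanoparticles at 100 mg/kg of soil, plants given bulk CuO (the raw material of larger particle size) at 100 mg/kg, and plants given CuSO4 as the pentahydrate at 320 mg/kg. Each copper material added about 80 mg/kg of copper. The series text says that 3 biological replicates per treatment were extracted, and the table holds 1 library for each tissue and treatment. No replicate stands behind a difference between treatments, and none was tested. The sources used here do not say how the pollen was collected.

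Pollen grains are the male gametophytes of flowering plants: a vegetative cell, which later forms the pollen tube, encloses the sperm cells or the cell that forms them. Mature grains of well-studied plants store messenger RNA that is used when the grain germinates and the tube grows through the pistil. In Arabidopsis the pollen transcriptome is smaller than that of leaves or roots, and it is rich in transcripts for cell wall, cytoskeleton and signalling proteins. Whether the 217 genes belong to these classes could not be read from the table, which gives gene IDs without names. The RefSeq gene table used here holds none of these IDs (0 matches), so no function, no marker check of the tissue labels and no sequence is given. An ID such as Cp4.1LG07g06470 holds a linkage group (LG07) and a number that goes up in steps of 10 within the group. Linkage groups LG01 to LG20 stand beside a group LG00.

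The 217 genes made up 1.94% of the 11185 genes that averaged 1 FPKM or more in pollen (called pollen genes here), and they held 37.5% to 39.3% of the summed FPKM of each pollen library. Their share of the library's FPKM total was 39.3% in control pollen, 37.5% under CuO nanoparticles, 38.6% under bulk CuO and 37.7% under CuSO4. Because every gene of a library is divided by the same total, these are also shares in TPM. Another 595 genes reached 100 FPKM in all 4 pollen libraries but were at 1 FPKM or more in some root or leaf library. These 595 abundant genes, the comparison set for all that follows, held 41.5% to 43.4%. In RNA of a whole tissue, fewer cells of a type and less RNA per cell cannot be told apart, so these are shares of normalized signal, not of cells.

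Mean levels of the pollen-only genes over the 4 pollen libraries ran from 119 to 8567 FPKM with a median of 788 FPKM, while the median of the other 595 abundant genes was 250.4 FPKM. An average of 1000 FPKM or more was found for 94 pollen-only genes (43.3%) and for 78 of the others (13.1%). The top of the pollen ranking was mostly theirs: they supplied 8 of the 10, 16 of the 20 and 65 of the 100 genes of highest mean level in pollen. All 5 genes above 5000 FPKM were pollen-only. The rule asked for absence elsewhere and set only the lower end of the levels, so the upper end is a description of these libraries. Among the 746 pollen genes that were under 1 FPKM in every root and leaf library, 29.1% reached 100 FPKM in all 4 pollen libraries, and among the other 10439 pollen genes 5.70% did.

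The highest gene in pollen was Cp4.1LG07g06470, at 9178 FPKM in control pollen, 8033 FPKM under nanoparticles, 8679 FPKM with bulk CuO and 8376 FPKM with CuSO4. Cp4.1LG07g05480 followed with 8052, 7145, 7705 and 7327 FPKM in the same order of libraries. Both were highest in the control library and lowest under nanoparticles, and the highest library exceeded the lowest by 1.14 and 1.13 times. Next was Cp4.1LG07g05380, with 5642, 5490.1, 5781 and 5659 FPKM, whose libraries differed by 1.05 times at most. Cp4.1LG11g00390 stood at 6167 FPKM in control pollen and at 5101 to 5481 FPKM in the copper libraries, and it was listed at 0 in all 8 root and leaf libraries. The next 6 pollen-only genes by mean, with 4 genes outside the rule ranked among them in pollen, were Cp4.1LG07g05490 (5184 FPKM), Cp4.1LG07g06460 (4841 FPKM), Cp4.1LG02g09060 (4216 FPKM), Cp4.1LG07g10050 (4179 FPKM), Cp4.1LG19g06620 (3924 FPKM) and Cp4.1LG01g07410 (3918 FPKM). Together the 10 highest pollen-only genes held 8.09% of the control pollen total, 7.54% under nanoparticles, 8.11% under bulk CuO and 7.71% under CuSO4.

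**Figure D1:**
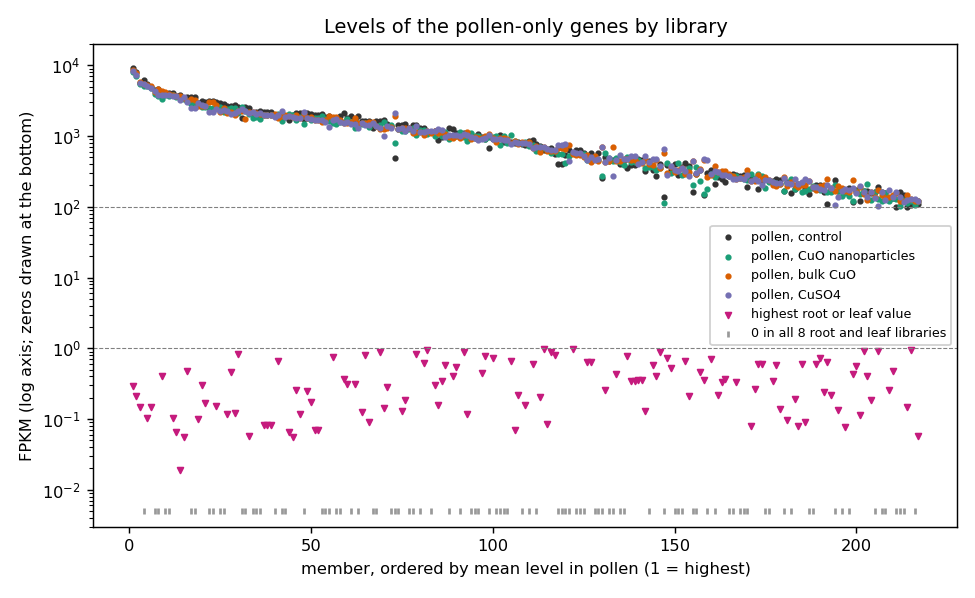
FPKM (log axis) of each of the 217 pollen-only genes, ordered by mean level in pollen: 1 point for each of the 4 pollen libraries, and a triangle for the highest of the 8 root and leaf libraries, with genes listed at 0 in all 8 drawn as ticks at the bottom. The pollen values of a gene mostly lie close together, between the 100 FPKM limit and 9178 FPKM. The triangles stay below 1 FPKM by the rule.

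The edges of the rule were narrow in a few cases. Cp4.1LG16g08420 was just inside the pollen limit, at 100.4 FPKM in the control library and 127, 157 and 163 FPKM in the copper libraries, and Cp4.1LG04g13490 had a lowest value of 100.4 FPKM as well. Cp4.1LG02g13190 was just outside, with 99.6 FPKM in control pollen and 118 to 126 FPKM in the others, as was Cp4.1LG03g13930 with a lowest value of 98.5 FPKM. On the root and leaf side, Cp4.1LG13g10000 was just inside at 0.99 FPKM in the nanoparticle root library, and Cp4.1LG07g02160 at 0.97 FPKM in the CuSO4 leaf library. Cp4.1LG17g10100 and Cp4.1LG02g08610 were just outside, with highest values of 1.002 and 1.005 FPKM.

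What remained of these genes in root and leaf was small, as the rule required. In all 8 root and leaf libraries, 93 of the 217 genes were listed at 0, 27 were above 0 in a single library and 9 in all 8. Traces were found in root and leaf for 76 genes, in root alone for 32 and in leaf alone for 16. The summed FPKM of all 217 genes was 16.5 in control root, 17.3 under nanoparticles, 21.3 under bulk CuO and 11.1 under CuSO4. In leaf the sum was 10.9, 12.9, 13.1 and 13.1 FPKM in the same order. In pollen the same sum lay between 249765 and 274411 FPKM. The rule caps each gene at 1 FPKM, so the size of these traces is no result. A gene whose trace reached 1 FPKM was left out, so a relation of traces to pollen level cannot be judged within the 217. For the 124 genes with a trace, the mean in pollen was at the median 1893 times the highest root or leaf value, a ratio that the rule itself holds above 100. Spearman's rho between a gene's mean root and leaf level and its mean pollen level was -0.10 over the 217 genes, which share the same 12 libraries, and 47 of the 109 genes at or above the median pollen level were listed at 0 throughout, as were 46 of the 108 below it.

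Several traces of LG07 genes were highest in the same library. All 17 pollen-only genes of LG07 were listed at 0 in the control leaf library and in the CuSO4 root library, which also had the most zeros over all 217 genes (173 and 170). Their sum was 1.37 FPKM in the nanoparticle leaf library, where 7 of them had their highest trace. Over all linkage groups, 124 pollen-only genes had a trace, and for 24 of them it was highest in that library. The LG07 sum was 1.22 FPKM in the CuSO4 leaf library, of which 0.97 FPKM came from Cp4.1LG07g02160. Cp4.1LG07g06470, for one, stood at 0.289 FPKM in nanoparticle leaf and at 0.068 FPKM or less in the other 7 libraries, and Cp4.1LG07g05480 stood at 0.213 and at most 0.092 FPKM. Cp4.1LG07g05380 and Cp4.1LG07g06460 shared the values 0.147 FPKM in nanoparticle leaf, 0.054 FPKM in bulk CuO root and 0.038 FPKM in bulk CuO leaf. Whether reads were divided between similar genes of this group was not tested, and depth was not estimated for the root and leaf libraries.

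The pollen-only genes were unevenly spread over the linkage groups. Of all listed genes, 0.779% were pollen-only. The share was 1.5% in LG08 (21 of 1400 genes), 1.47% in LG07 (17 of 1159), 1.33% in LG12 (16 of 1201) and 1.28% in LG04 (21 of 1643). At the other end stood LG06 with 0.195% (2 of 1027), LG05 with 0.317% (5 of 1575) and LG14 with 0.372% (4 of 1074). The other abundant genes took 1.1% of LG00 and 1.67% to 3.07% of the 20 numbered groups, against 2.14% of all genes. LG08 had the largest share of these as well, at 3.07% (43 of 1400 genes). Of all abundant pollen genes, the pollen-only ones were 26.7% in the whole table. By group, the highest percentages were 44.4% in LG12, 40% in LG00, 38.6% in LG07 and 38.5% in LG16. LG08 stood at 32.8%, and the lowest were LG05 with 12.5% and LG06 with 8.0%. LG00 held 12 pollen-only genes, among 1636 genes. No test was made of these counts.

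By level, LG07 stood apart from the other groups. Its 17 genes held 22.8% of the summed mean FPKM of all 217, ahead of LG04 with 10.3% and LG15 with 8.77%. They had a median of 3546 FPKM, and 10 of the 20 highest pollen-only genes carried an LG07 ID. LG08 had more pollen-only genes, 21, but at a median of 308 FPKM, and its share of the summed FPKM was 5.00%. LG16 had 10 genes at a median of 193 FPKM and 1.05% of the sum. Without the 2 highest genes, both of LG07, the group still held 17.7%.

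**Figure D2:**
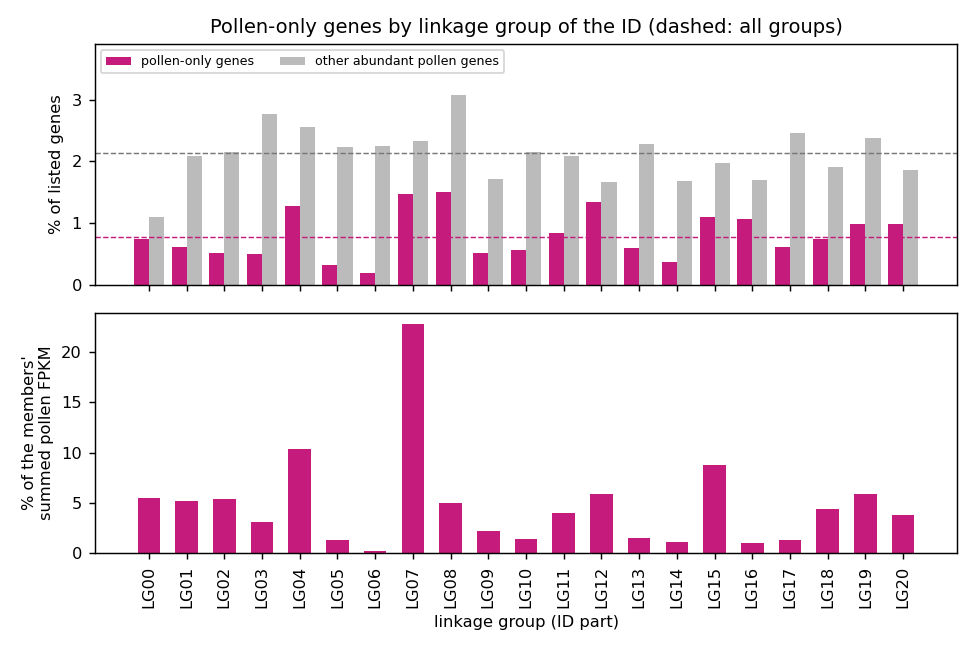
Upper panel: percent of the listed genes of each linkage group that were pollen-only or belonged to the other abundant pollen genes, with dashed lines at 0.779% and 2.14% for the whole table. Lower panel: percent of the summed mean pollen FPKM of the 217 genes held by each group, in which LG07 reaches 22.8%.

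Many of these genes had IDs next to each other. For 45 of the 217 (20.7%) the next or the previous listed ID was also pollen-only, while 26 of the other 595 abundant genes (4.37%) had such a neighbour within their own set, although that set is larger. The 45 genes formed 18 runs: 12 pairs, 5 runs of 3 and 1 run of 6. With a window of 2 places the counts were 54 (24.9%) and 36 (6.05%), with 5 places 62 (28.6%) and 106 (17.8%), and with 10 places 78 (35.9%) and 207 (34.8%), so the percentages of the sets came closer as the window widened. The larger set has more members that can be neighbours in any window, and these percentages were not corrected for that. ID numbers were taken as the order along a group; positions on a genome were not used here. Members of a run often differed in level. The highest mean within a run was between 1.07 and 12.6 times the lowest, with a median of 1.82, and in 10 of the 18 runs it was under 2 times.

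The longest run was Cp4.1LG19g01110 to Cp4.1LG19g01160. Cp4.1LG19g01110 stood at 1646 FPKM in control pollen, 1363 under nanoparticles, 1559 under bulk CuO and 1434 under CuSO4. Cp4.1LG19g01130 was the highest of the run, with 3007, 2539, 2679 and 2644 FPKM. Cp4.1LG19g01140, Cp4.1LG19g01150 and Cp4.1LG19g01160 had means of 1299.55, 2060.0 and 1839 FPKM. In these 5 genes the control library was the highest and the nanoparticle library the lowest of the 4 as deposited, which held with equal FPKM totals; after quantile normalization 2 of the 5 were highest under copper, and with a common median 1 was lowest under CuSO4. The remaining gene, Cp4.1LG19g01120, was lower and went another way, with 170 and 167 FPKM in control and nanoparticle pollen and 266 and 258 FPKM under bulk CuO and CuSO4. The ID after the run, Cp4.1LG19g01170, was outside the rule only by level: it was listed at 0 in all root and leaf libraries and stood at 67.8 and 72.2 FPKM in control and nanoparticle pollen and at 176 and 188 FPKM under bulk CuO and CuSO4. The 3 IDs before the run and the next 2 after it were at 6.86 FPKM or less in every pollen library.

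In LG07, 6 pollen-only genes lay within 12 consecutive IDs from Cp4.1LG07g05380 to Cp4.1LG07g05490, and they alone held 11.2% of the summed FPKM of the 217 genes. Cp4.1LG07g05470, Cp4.1LG07g05480 and Cp4.1LG07g05490 were direct neighbours with means of 3627, 7557 and 5184 FPKM, and Cp4.1LG07g05410 and Cp4.1LG07g05450 had means of 3434 and 3866 FPKM. The 6 IDs between them did not meet the rule, with pollen means of 0 to 43.6 FPKM and root or leaf values of up to 38.3 FPKM. Cp4.1LG07g06460 and the highest gene of all, Cp4.1LG07g06470, formed a pair elsewhere in the same group, with 5.15% of the summed FPKM.

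LG12 and LG15 showed the same arrangement on a smaller scale. In LG15, Cp4.1LG15g01550, Cp4.1LG15g01560 and Cp4.1LG15g01570 had means of 2715, 3057 and 3023 FPKM. Another pollen-only gene, Cp4.1LG15g01590, followed after Cp4.1LG15g01580, a gene with at most 0.253 FPKM in pollen and 16.7 FPKM in root. All 4 were listed at 0 in every root and leaf library, and all 4 were lowest under CuSO4. The pollen values of Cp4.1LG15g01550 and Cp4.1LG15g01590 were almost the same, and those of Cp4.1LG15g01560 and Cp4.1LG15g01570 were close. The 4 genes may therefore not be separate observations. Control pollen was the highest for all 4 as deposited, and bulk CuO pollen after quantile normalization. Cp4.1LG15g01560, for example, stood at 3581, 2872, 3293 and 2481 FPKM in control, nanoparticle, bulk CuO and CuSO4 pollen. In LG12, 6 pollen-only genes fell within 8 IDs from Cp4.1LG12g04500 to Cp4.1LG12g04570, at means of 149 to 1794 FPKM.

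**Figure D3:**
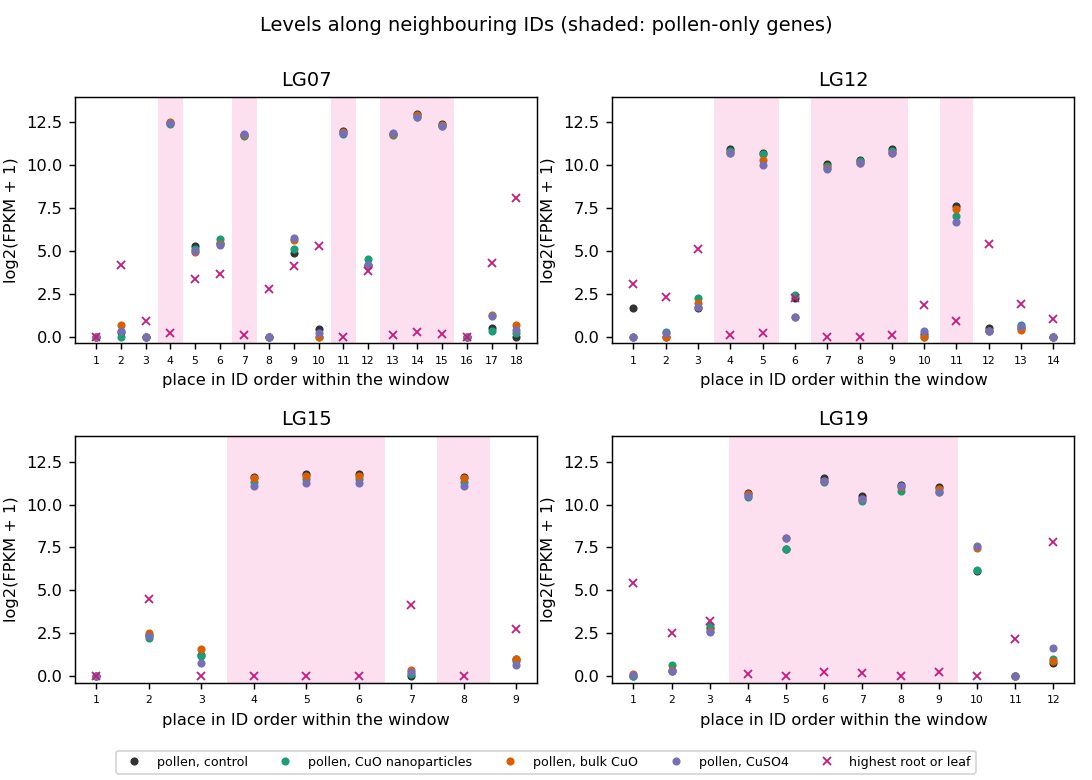
log2(FPKM + 1) of every listed ID in ID order around 4 groups of neighbouring pollen-only genes (shaded), with 1 point for each pollen library and a cross for the highest root or leaf library. The shaded genes stand far above the unshaded IDs between them, which are at most 43.6 FPKM on average within the LG07 block, and their crosses lie near 0.

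Some pollen-only genes had the same values as another. Cp4.1LG00g11550 and Cp4.1LG10g04380 were identical in all 12 libraries, at 386, 427, 459 and 517 FPKM in control, nanoparticle, bulk CuO and CuSO4 pollen. Within 0.5% in every pollen library, 11 of the 217 genes matched another pollen-only gene, in 5 sets. None of the other 595 abundant genes matched a pollen-only gene in this way (0 pairs), and 6 of them matched each other, in 3 pairs. These are 5.07% of the pollen-only and 1.01% of the other abundant genes. The largest set was Cp4.1LG04g01710, Cp4.1LG04g01720 and Cp4.1LG04g01760, all at 2217 FPKM in control pollen and 1955 FPKM under CuSO4. The others were Cp4.1LG12g04500 with Cp4.1LG12g04550, Cp4.1LG15g01550 with Cp4.1LG15g01590, and Cp4.1LG11g11530 with Cp4.1LG11g11600. The levels of these genes are uncertain if the reads of near-identical copies were divided between them, which was not tested. Counting each set once left 211 genes, of which 41 had a pollen-only gene as direct neighbour.

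The 4 pollen libraries held these genes at similar levels, which the rule favours. A gene under 100 FPKM in any pollen library was left out, such as Cp4.1LG19g01170, so evenness is partly set by selection. The highest library exceeded the lowest by a median of 1.22 times over the 217 genes and by 1.18 times over the other 595 abundant genes, which had to meet the same minimum of 100 FPKM. The spread was wider at the upper end: 30 pollen-only genes (13.8%) and 30 of the others (5.04%) differed by more than 1.5 times, and 9 (4.15%) and 3 (0.504%) by more than 2 times. The gap lay among genes of moderate level. Between 100 and 500 FPKM the median ratio was 1.31 for 92 pollen-only genes and 1.18 for 429 others, and at 500 FPKM or more it was 1.19 for both sets (125 and 166 genes). The most even gene was Cp4.1LG09g07360, at 1158, 1145, 1117 and 1160.3 FPKM in control, nanoparticle, bulk CuO and CuSO4 pollen, followed by Cp4.1LG04g07980, at 1311, 1256, 1306 and 1288 FPKM. The order of the 217 genes by level was close to the same in all libraries, with Spearman's rho across genes of 0.966 to 0.992 for the 6 pairs of libraries.

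**Figure D4:**
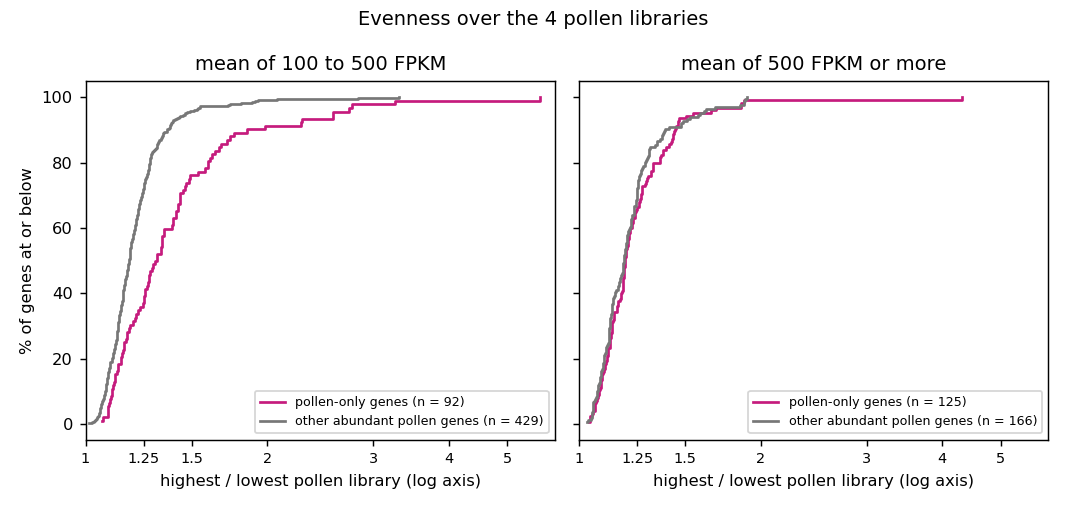
Cumulative percent of genes (vertical axis) by the ratio of the highest to the lowest of the 4 pollen libraries (log axis), for pollen-only and other abundant pollen genes, at mean levels of 100 to 500 FPKM (left) and 500 FPKM or more (right). At the lower levels the pollen-only curve lies to the right, with a median of 1.31 against 1.18, and at the higher levels the curves nearly coincide.

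Control pollen was the highest of the 4 libraries for 109 of the 217 genes (50.2%), against 44.4% of the other abundant genes. This count depended on how libraries were scaled, and was 85 with equal FPKM totals, 163 with a common median and 62 with quantile normalization. The percentage of the other abundant genes is given as deposited only. Control pollen had the largest FPKM total of the 4 libraries, 698915, and nanoparticle pollen the smallest, 666570. As deposited, nanoparticle pollen was the highest for 29 genes (13.4%), bulk CuO for 36 (16.6%) and CuSO4 for 43 (19.8%). For the other abundant genes these shares were 20.7%, 14.3% and 20.7%. Nanoparticle pollen was the lowest for 72 genes (33.2%), and for 33.1% of the other abundant genes. On the scale of log2(FPKM + 1), the median difference from control over the 217 genes was -0.10 under nanoparticles, -0.07 under bulk CuO and -0.08 under CuSO4. Over the other abundant genes it was -0.06, -0.06 and -0.05, and over all 11185 pollen genes 0.12, 0.07 and 0.07. As deposited, the pollen-only genes and the other abundant genes thus had medians below control and all pollen genes a median above it, but after quantile normalization the medians of the pollen-only genes were 0, 0.01 and -0.02, so no direction is given for them. These 3 comparisons share 1 control library. The SD of the difference over the 217 genes was 0.249, 0.386 and 0.418. It describes how genes differ from each other and not the variation between plants.

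Each copper material was compared with untreated plants to see which pollen-only transcripts differed with copper in the soil. Under CuO nanoparticles, 0 of the 217 genes were past 1 on the log2 scale (a 2-fold difference) in either direction, where 2.59% of all pollen genes were past 1 and higher and 0.438% were past 1 and lower. The other 595 abundant genes were about as steady, with 0 past 1 and higher and 1 lower (0.168%). The percentages over all pollen genes rest on low levels and moved with the value added before the log: the 2.59% was 6.16% with 0.1 added and 0.545% with 5 added in place of 1. The largest increase was that of Cp4.1LG14g08680, from 489 to 792 FPKM, a log2 difference of 0.69, followed by Cp4.1LG06g04860, from 178 to 286 FPKM. The largest decreases were those of Cp4.1LG20g07670, from 302 to 177 FPKM (log2 difference -0.76), and Cp4.1LG01g03320, from 162 to 102 FPKM. Within 0.5 of control on the log2 scale lay 94.9% of the pollen-only genes and 98.2% of the other abundant genes.

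Under bulk CuO, 6 of the 217 genes (2.76%) were past 1 and higher, where 7.38% of all pollen genes and 1 of the other 595 abundant genes (0.168%) were. None was past 1 and lower (0 of 217), against 1.15% of all pollen genes and 1 of the other 595 abundant genes (0.168%). Of the 11185 pollen genes, 812 reached 100 FPKM in all 4 pollen libraries, so most of that background stood at lower levels. Cp4.1LG01g00850 stood at 138 FPKM in control pollen and 114 FPKM under nanoparticles, but at 577 FPKM under bulk CuO and at 648 FPKM under CuSO4. Its bulk CuO and CuSO4 libraries were far above control and nanoparticles, with a log2 difference from control of 2.06 under bulk CuO. Cp4.1LG14g08680 came next, with 489, 792, 1899 and 2113 FPKM in the same order and a log2 difference of 1.95. The largest decreases were those of Cp4.1LG04g07610, from 2555 to 1748 FPKM (log2 difference -0.55), and Cp4.1LG12g05830, from 240 to 166 FPKM (-0.52).

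Under CuSO4, 5 of the 217 genes (2.30%) were past 1 and higher and 1 was past 1 and lower, where 8.57% and 0.635% of all pollen genes were. Of the other 595 abundant genes, 2 were higher and 1 lower. Cp4.1LG01g00850 and Cp4.1LG14g08680 again had the largest increases, with log2 differences of 2.22 and 2.11. Cp4.1LG12g05830 had the largest decrease, at 240 FPKM in control pollen, 200.2 FPKM under nanoparticles, 166 FPKM with bulk CuO and 105 FPKM with CuSO4, a log2 difference of -1.19. Cp4.1LG12g04570 followed, from 193 to 104 FPKM (-0.88). Past 2.3, the threshold on the log2 scale that the series text names, 0 of the 217 genes were found under any material, where 0.34% of all pollen genes passed it under nanoparticles, 1.6% under bulk CuO and 2.03% under CuSO4. The other 595 abundant genes also had 0 past 2.3 under each material. A gene held at 100 FPKM or more in every library can pass 2.3 only if it reaches about 5 times that level somewhere (4.92-fold).

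The copper materials were also set against each other, in 3 pairs, at about the same copper dose. Bulk CuO and CuSO4 were the closest pair for the pollen-only genes: the SD over the 217 genes of the log2 difference was 0.198, and it was 0.324 between bulk CuO and nanoparticles and 0.358 between CuSO4 and nanoparticles. The other abundant genes had the same order, at 0.110, 0.192 and 0.204. Over all pollen genes the SD was 0.393, 0.603 and 0.601, so the same pair was the closest there too. Compared with nanoparticles, 5 genes were past 1 and higher under bulk CuO and 0 lower, where 4.23% and 1.44% of all pollen genes were, and 6 were higher and 0 lower under CuSO4, where 5.39% and 1.23% were. Of the other 595 abundant genes, 0 were past 1 and higher under bulk CuO and 1 under CuSO4 (0.168%), against 2.30% and 2.76% of the pollen-only genes. Past 2.3 was Cp4.1LG01g00850 alone in both comparisons, with log2 differences of 2.33 and 2.49, where 1.18% and 1.09% of all pollen genes passed. The other 595 abundant genes had 0 past 2.3 in these comparisons. Cp4.1LG14g01940 was second in both, at 145 FPKM in control pollen, 153 FPKM under nanoparticles, 455 FPKM with bulk CuO and 473 FPKM with CuSO4.

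Lower under bulk CuO than under nanoparticles were Cp4.1LG02g15030, with 126 against 207 FPKM, and Cp4.1LG01g15520, with 304 against 421 FPKM. Lower under CuSO4 than under nanoparticles were Cp4.1LG12g05830, with 105 against 200.2 FPKM, and Cp4.1LG02g10790, with 272 against 440.0 FPKM. Neither comparison had a decrease past 1. Between CuSO4 and bulk CuO, 0 genes were past 1 and higher and 1 was lower, where 1.32% and 0.545% of all pollen genes were. Of the other 595 abundant genes, 0 were past 1 in either direction. The lower gene was Cp4.1LG02g10790, at 453 FPKM in control pollen, 440.0 FPKM under nanoparticles, 699 FPKM with bulk CuO and 272 FPKM with CuSO4, a log2 difference of -1.36 between CuSO4 and bulk CuO. Its bulk CuO library was the highest of the 4 and its CuSO4 library the lowest. Past 2.3 were 0 of the pollen-only and 0 of the other abundant genes, where 0.367% of all pollen genes were. Cp4.1LG19g06630 followed, with 448 against 742 FPKM (-0.73). Higher under CuSO4 than under bulk CuO were Cp4.1LG20g07670, with 456 against 262 FPKM (0.80), and Cp4.1LG04g07610, with 2244 against 1748 FPKM (0.36).

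**Figure D5:**
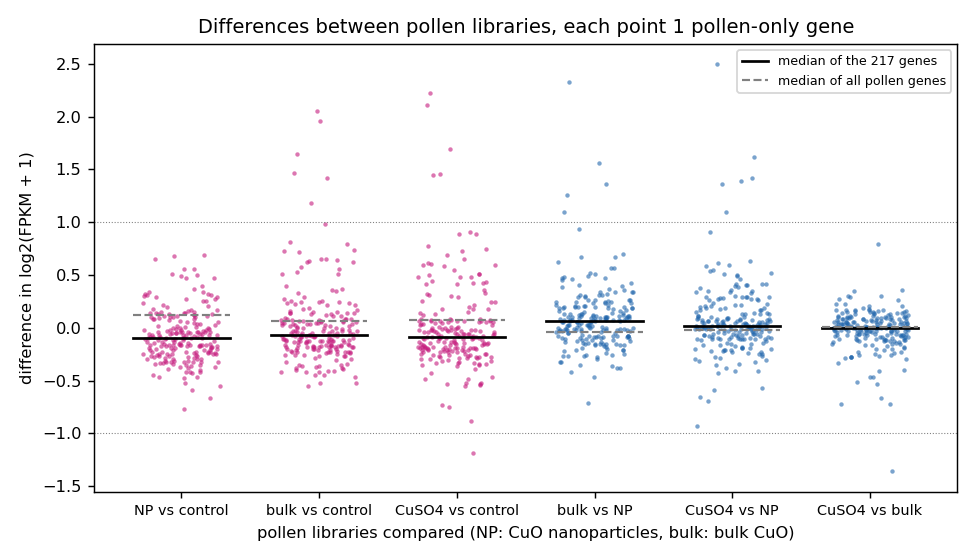
Difference in log2(FPKM + 1) between pollen libraries for each of the 217 pollen-only genes (points), with the median of these genes (solid line), the median of all 11185 pollen genes (dashed line) and dotted lines at 1 and -1. Single genes reach 2.22 above control and 2.49 above nanoparticles, while 96.8% of the genes lie within 0.5 of 0 between CuSO4 and bulk CuO.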

How the data were processed

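Strand-specific mRNA libraries of zucchini root, leaf and pollen were sequenced as single 75 bp reads, per the series text. The authors deposited FPKM per gene and library, normalized by them; the series text names STAR and a cucurbit reference transcriptome, and the submitters' processing notes name cutadapt and StringTie. The sources used here name no versions and no genome build, and do not say whether RNA was pooled. Relative depth was estimated for the pollen libraries from the whole-number steps of low values: against control pollen it was 1.02 under nanoparticles, 0.985 under bulk CuO and 1.15 under CuSO4. Total reads are unknown, so counting error could not be computed, and a 0 can be a failed estimate.

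Differences are in log2(FPKM + 1) over the 11185 genes averaging 1 FPKM or more in pollen. With 1 library per group nothing was tested. As a check of the code alone, the steps recovered genes planted without noise in an altered copy of the values. The members, gene sets, thresholds and comparisons were chosen with earlier results of these data known. Named were the 10 highest members, those nearest the limits, the 2 largest differences per direction, the least and most even, the longest run, the 3 highest neighbour pairs and identical genes; the LG12 and LG15 groups, the LG07 traces and the near-equal sets were singled out after their values were seen. The marker lists planned for pollen, root and leaf could not be applied without gene names. Alternatives covered the limits of the rule, left-out libraries, scaling, pseudocount, low-value filter and neighbour window. Software was scipy 1.17.1, pandas 2.3.3, matplotlib 3.10.9 and numpy 2.4.6 in Python 3.11.15.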

Additional observations from a re-analysis of the deposited data

How the results depend on the processing

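The number of pollen-only genes was 171 to 269 when the pollen limit was 200 or 50 FPKM or the root and leaf limit 0.5 or 2 FPKM, and 343 with a root and leaf limit of 5 FPKM. Leaving out the 3 libraries of each treatment in turn gave 224 to 231 genes, and equal FPKM totals of 1e6 per library gave 198. Without the 10 highest pollen-only genes the share of the FPKM total was 33.9%, 32.4%, 33.2% and 32.5% in control, nanoparticle, bulk CuO and CuSO4 pollen. Shifting the pollen libraries to a common median moved the median difference from control over the pollen-only genes to -0.26 under nanoparticles, -0.23 under bulk CuO and -0.28 under CuSO4, the median ratio of highest to lowest library to 1.33, and the number of genes past 1 and lower under CuSO4 from 1 to 2. The gene past 2.3 between bulk CuO and nanoparticles was lost (0 genes) with equal FPKM totals and with 5 added before the log. LG08 had the largest share of pollen-only genes also among pollen-expressed genes (3.43%), and LG07 took its place at a pollen limit of 200 FPKM (1.47%). With neighbours counted within 5 places the other abundant genes had 106, and within 10 places 207, against 78 pollen-only genes within 10 places. The other 162 values of these results, percentages over all pollen genes not among them, stayed close to those reported: counts and percentages of linkage groups within 1.5 times, log2 medians and ratios within 0.1, shares and sums within the SD over libraries. Under quantile normalization the log2 median for bulk CuO against control changed sign, to 0.01, that for nanoparticles was 0 and that for CuSO4 -0.02, and that of CuSO4 against nanoparticles was -0.01, -0.02 and -0.0044 with a common median, quantile normalization and equal FPKM totals, from 0.02 as deposited. The percentages of all pollen genes past a threshold moved by more than 1.5 times in 60 of 126 recalculations: in all 18 with 5 added before the log, 16 with 0.1 added, 15 without a filter on low values and 7 with a filter at 5 FPKM. Differences of named genes moved by over 0.1 in 14 of 120. No paired analysis was possible because each group has 1 library and the labels give no replicate numbers. The unknown absolute depth limits what can be said of traces in root and leaf.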
